A study of Mus musculus with 12 samples.

Results

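The Hox genes are homeobox genes that tell cells where along the head-to-tail axis they lie. In mice they stand in 4 clusters, Hoxa, Hoxb, Hoxc and Hoxd. Within a cluster the number of a gene, its paralog group, follows its place on the chromosome. Low numbers are read out in anterior tissue, and high numbers, up to group 13, are added towards the tail end, so that the hindgut, the colon and the rectum carry group 13 products. Adult gut keeps much of this code, in the epithelium for some members and in the mesenchyme, muscle and enteric nerves for others. The genes were taken from the deposited gene table by symbol alone (Hox, a cluster letter a to d and a number from 1 to 13, with nothing after it). This gave 40 rows of 54532, which carry 39 symbols because Hoxd4 is listed under 2 gene identifiers. Of these, 33 passed a filter on low values (FPKM of at least 0.1 in at least 3 of 12 libraries), against 24102 rows of the whole table. FPKM is the number of fragments scaled to gene length and to the size of the library, so levels of different genes can be set side by side.

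Polyadenylated RNA of whole colon was sequenced from 4 groups of 3 libraries. Tmem173 encodes STING, a sensor adaptor of the interferon response, and Tmem173fl/fl mice (here fl/fl) carry the floxed gene in all 4 groups. Tmem173fl/flLzym-Creert2 mice (here iΔmye) also carry a tamoxifen-inducible Cre driven from the lysozyme locus, which acts in myeloid cells, so that other colon cells keep the gene. Mice of both genotypes were given tamoxifen by 5 intraperitoneal injections and were 6 to 8 weeks old. The labels describe the injections as coming before DSS and do not mention the untreated mice separately. One group of each genotype was left untreated, and the other drank dextran sulfate sodium (DSS, 2.5 to 3%), which injures the colon epithelium, for 7 days and then water for 1 day. The iΔmye DSS libraries are numbered 1, 2 and 5. The labels do not give the colon segment or the sex of the mice.

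The library totals ran from 13823237 to 18718915 counts, and no pair of libraries held identical counts. Tmem173 itself stood at 6.07 to 10.4 FPKM in the untreated fl/fl libraries and 6.20 to 9.12 in the untreated iΔmye libraries. After DSS it stood at 16.6 to 19.2 and 10.2 to 20.7 FPKM, and it did not differ between the genotypes with DSS (log2 difference of -0.28, SE 0.26, adjusted p = 0.602 in edgeR's quasi-likelihood test). These values do not show the deletion. Xist, the RNA of the inactive X chromosome, was at 67.2 to 100.4 FPKM in untreated fl/fl library 3, untreated iΔmye library 3 and DSS iΔmye library 5, and at no more than 0.0308 in the other 9 libraries. Of these, DSS iΔmye library 5 stood apart from its group in many Hox genes. Results on Hox genes that rest on library 5 are given with and without it, and counts of calls also without all 3. Epithelial markers (6 genes, summed) were at 4374 to 5425 FPKM in untreated fl/fl colon and at 1555 to 2759 after DSS. Fibroblast markers (7 genes, summed) were at 149 to 178 and at 1056 to 1312 FPKM. Of 5 markers of the urinary and genital tract, neighbouring organs that also use group 13 genes, the uroplakins Upk2 and Upk3a and the prostate gene Pbsn were at or below 3 counts in all 12 libraries. The uroplakin Upk1a was at 1.95 to 7.47 FPKM, present in all 12, and Svs4 of the seminal vesicle reached 0.487 FPKM in DSS iΔmye library 1.

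Hox proteins bind DNA through the homeodomain, which 60 codons encode. The stretch of codons 42 to 58 covers the helix that lies in the major groove of DNA. The 7 sequences that follow, read from GENCODE release M21 transcripts, show this stretch for all 4 paralog group 13 genes and for 3 genes of lower groups that the results turn on. Capitals mark codons 46 and 54.
Hoxa13: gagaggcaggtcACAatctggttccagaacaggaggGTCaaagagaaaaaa
Hoxb13: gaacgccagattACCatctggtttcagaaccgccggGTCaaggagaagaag
Hoxc13: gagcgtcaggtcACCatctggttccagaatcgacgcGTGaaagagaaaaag
Hoxd13: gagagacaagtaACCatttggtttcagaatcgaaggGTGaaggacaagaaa
Hoxa11: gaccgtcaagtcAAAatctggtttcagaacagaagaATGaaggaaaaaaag
Hoxd8: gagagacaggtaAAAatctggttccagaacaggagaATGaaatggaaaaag
Hoxb6: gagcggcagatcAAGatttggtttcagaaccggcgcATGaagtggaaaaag
In 4 of 4 group 13 genes codon 46 was ACN and codon 54 was GTN, where N is any base. In 35 of 35 other members codon 46 was AAA or AAG and codon 54 was ATG. Group 13 thus differed from the rest of the family in the stretch that contacts DNA. Identity over the whole homeobox of 180 bases was taken for pairs of members whose gene bodies do not overlap. Of these, 42 pairs with the same number shared 67.2 to 93.9% of their bases (median 80.6%), and 691 pairs with different numbers shared 46.1 to 88.9% (median 60.6%). Hoxa13 and Hoxb13 were 68.9% identical, Hoxa13 and Hoxd13 73.9%, and Hoxb13 and Hoxd13 67.2%. The longest run shared by transcripts of members whose gene bodies do not overlap was 52 bases (Hoxa6 and Hoxb4). Hoxd3 and Hoxd4, whose bodies overlap, shared 388 bases, and Hoxc5 and Hoxc10 shared 168, so their counts are uncertain.

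The clusters lie in GRCm38 at chr6:52155590-52260880 (Hoxa), chr11:96194316-96368256 (Hoxb), chr15:102921103-103036852 (Hoxc) and chr2:74668310-74765142 (Hoxd). All 11 Hoxa genes passed the filter, 9 of 10 Hoxb genes, 5 of 9 Hoxc genes and 8 of 10 Hoxd rows. The 7 rows that did not pass were Hoxb1, Hoxc5, Hoxc11, Hoxc12, Hoxc13, Hoxd1 and 1 of the Hoxd4 identifiers. None of them exceeded 10 counts or 0.179 FPKM in any library, and Hoxb1, Hoxc12 and Hoxc13 had 0 counts in all 12, which allows up to 3 counts per library. In total 24 members overlap the body of another gene, 14 of them on the opposite strand. The library kit did not mark the strand, so reads of these genes and of their antisense partners cannot be told apart.

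In untreated fl/fl colon the members with the highest level per length were in Hoxa and Hoxb. Hoxb13 stood at 111, 61.5 and 84.6 FPKM in libraries 1, 2 and 3, and made up 27.0 to 41.4% of all Hox FPKM. Hoxa13 stood at 31.1, 29.4 and 30.2 FPKM, and Hoxb9 at 23.4, 31.6 and 28.5. Hoxa13 was thus nearly constant between libraries, while Hoxb13 varied. Hoxa10 (15.7 to 16.6 FPKM), Hoxa7 (14.2 to 18.1), Hoxa9 (11.9 to 17.5), Hoxa5 (9.55 to 14.5) and Hoxa6 (6.39 to 13.7) followed. Each of these overlapped its neighbours in this order, while Hoxa10 lay above all of Hoxa5 and Hoxa6, and Hoxa7 above all of Hoxa6. Hoxb3 to Hoxb8, which lie between Hoxb2 and Hoxb9, summed to only 3.48 to 10.3 FPKM. The Hoxc cluster held 0.0717 to 0.243% of Hox FPKM. Hoxd13 was the most variable of the high members, at 17.6, 2.02 and 6.90 FPKM in fl/fl libraries 1, 2 and 3 and at 1.93, 1.51 and 34.9 in the untreated iΔmye libraries. The untreated colon thus held much of Hoxa from Hoxa5 on, apart from Hoxa11 (1.13 to 2.28 FPKM), the Hoxb9 and Hoxb13 end of Hoxb, and a Hoxd13 level that differed between libraries of the same group.

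**Figure D1:**
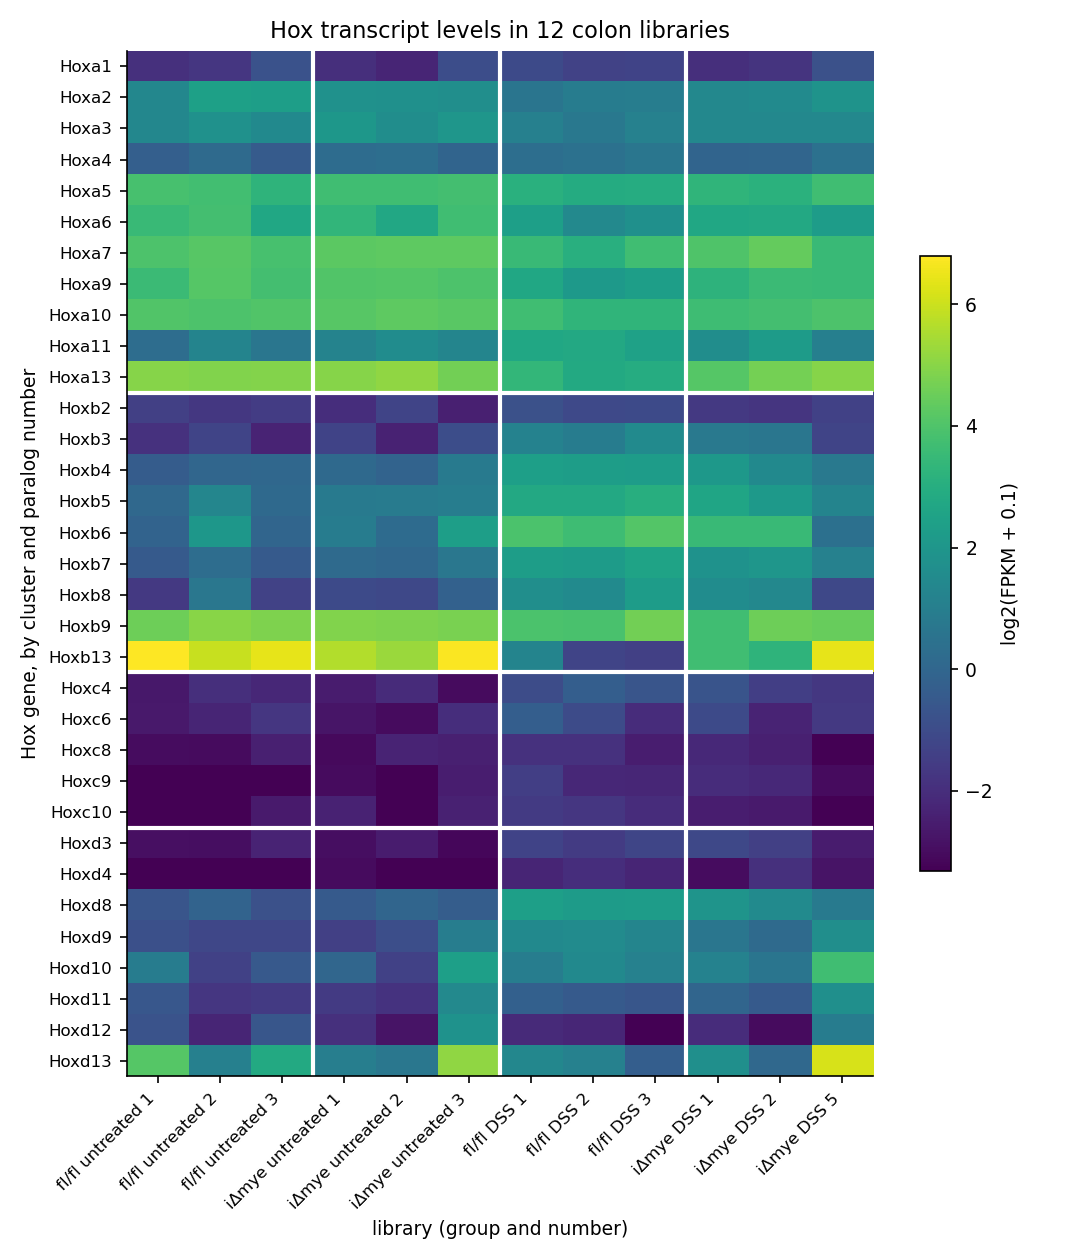
Level of the 33 Hox genes past the filter, as log2(FPKM + 0.1), in each of the 12 libraries, ordered by cluster and by paralog number, with white lines between clusters and groups. After DSS the Hoxb3 to Hoxb8 rows are lighter and the Hoxa13 and Hoxb13 rows darker in the fl/fl libraries, and iΔmye DSS library 5 carries high Hoxd10 to Hoxd13.

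To ask how DSS injury changed the Hox code in mice with intact STING, DSS and untreated fl/fl libraries were compared. The 3 group 13 genes tested fell, Hoxd13 less firmly than the others, and the middle of Hoxb and Hoxd rose. Hoxb13 fell by 6.45 on the log2 scale (SE 0.67), Hoxa13 by 1.85 (SE 0.16) and Hoxd13 by 2.30 (SE 0.68), whereas Hoxb3, Hoxb4, Hoxb5, Hoxb6, Hoxb7 and Hoxb8 all rose, by 2.33 to 3.49. Of the 33 members tested, 19 (57.6%) were called (adjusted p under 0.05 and a change of at least 1 on the log2 scale), 13 higher and 6 lower, where 22.5% of all genes tested were called. Calls higher made up 14.9% of all genes and calls lower 7.61%. The median change was 1.33 over the members and 0.03 over all genes. Among 20 members of paralog groups 1 to 8, 10 were higher and 2 lower, with a median of 2.01. Among 13 members of groups 9 to 13, 3 were higher and 4 lower, with a median of -0.58. Hoxc8, Hoxc9, Hoxc10, Hoxd3 and Hoxd4 passed the filter only with the help of DSS libraries, so that a higher level with DSS was favoured by the filter and their calls are no support for a rise. Without them 28 members gave 16 calls, 10 higher and 6 lower, with a median of 0.72. In groups 1 to 8 these were 8 higher and 2 lower of 17 (median 1.72), and in groups 9 to 13 they were 2 higher and 4 lower of 11 (median -0.60). By cluster, with all 33, 1 Hoxa gene was higher and 4 lower of 11, 6 Hoxb genes were higher and 1 lower of 9, 2 Hoxc genes were higher of 5, and 4 Hoxd genes were higher and 1 lower of 8.

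Hoxb13 (chr11:96194316-96197447), the most posterior gene of its cluster and a gene of the distal gut and the prostate, went from 111, 61.5 and 84.6 FPKM to 2.26, 0.324 and 0.282 after DSS (adjusted p = 6.559e-05, edgeR's quasi-likelihood test with Benjamini-Hochberg adjustment over 24102 genes, as for all adjusted p-values here). These are 3326, 2058 and 3039 counts against 91, 15 and 9. The groups were far apart, with a fitted ratio of 87.6 that rests in part on DSS library 1, without which the change was -8.12. Hoxa13 (chr6:52257694-52260880), needed in development for the hindgut and the urogenital tract, went from 31.1, 29.4 and 30.2 FPKM to 10.2, 7.02 and 7.64 (adjusted p = 2.219e-05), a ratio of 3.6 with no overlap. Hoxd13 (chr2:74668310-74671599), its counterpart in Hoxd, went from 17.6, 2.02 and 6.90 FPKM to 2.49, 2.05 and 0.724 (adjusted p = 0.02375). Here the groups overlapped, because untreated library 2 was as low as the DSS libraries. The Hoxd13 call was lost without untreated library 1 (-1.32, adjusted p = 0.1199) or 3 (-2.45, adjusted p = 0.05227), in limma at either pseudocount (-1.94, adjusted p = 0.1461, and -1.53, adjusted p = 0.1334) and in 1 fit of all 12 libraries (-2.36, adjusted p = 0.2288).

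**Figure D2:**
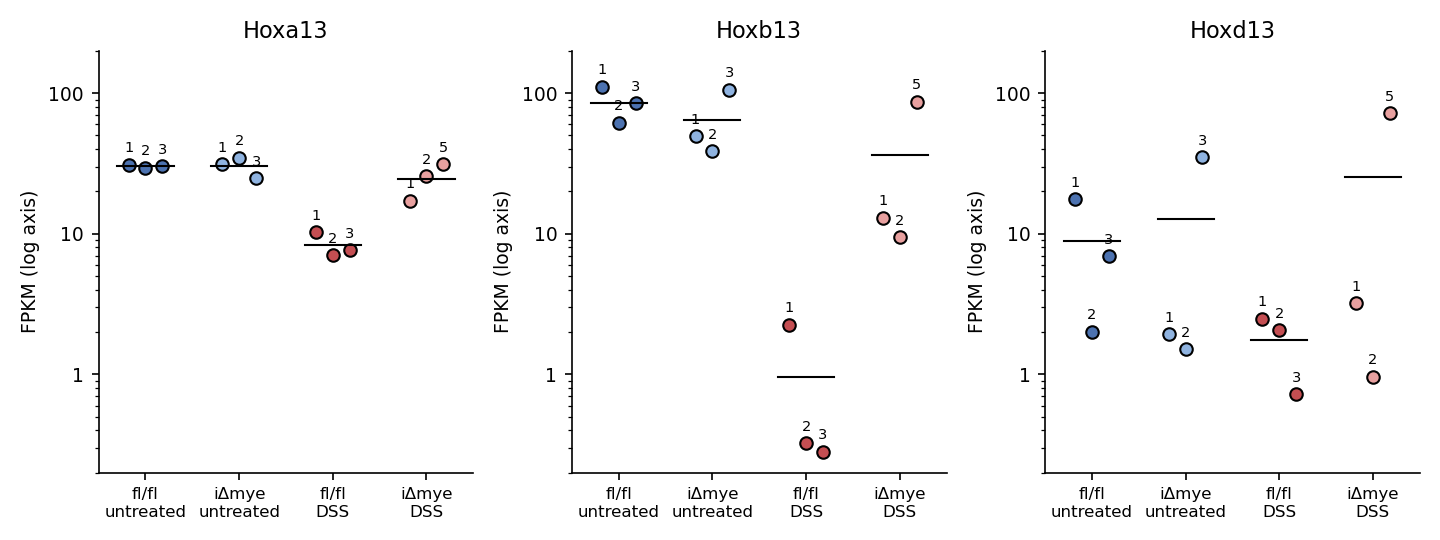
FPKM of Hoxa13, Hoxb13 and Hoxd13 on log axes in each library (points, with the library number) and the group mean (line) of 3 libraries. In fl/fl colon Hoxb13 went from between 61.5 and 111 to between 0.282 and 2.26 after DSS, and iΔmye DSS library 5 lies at the untreated level of all 3 genes or above it.

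Hoxa9 (chr6:52223100-52231089), which is also known for its role in blood stem cells, was lower too, at 11.9, 17.5 and 13.6 FPKM without DSS and 6.48, 4.33 and 4.98 with it (log2 change -1.43, SE 0.19, adjusted p = 0.0002818). Lower in the anterior part of the cluster were Hoxa6 (11.6, 13.7 and 6.39 against 5.14, 2.62 and 3.24 FPKM, -1.5, adjusted p = 0.007383) and Hoxa2 (2.49, 5.31 and 4.98 against 1.42, 1.83 and 1.87 FPKM, -1.30, adjusted p = 0.009871). These 3 genes did not overlap between the groups. Hoxa3, Hoxa5, Hoxa7, Hoxa10 and Hoxb9 had adjusted p-values under 0.05 with changes of -0.65 to -0.53, short of the fold threshold. Of the 11 Hoxa genes, 8 thus had a fitted value below 0.

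The Hoxa gene called higher was Hoxa11 (chr6:52242106-52245810), a gene of limb and uterus development. It stood at 1.13, 2.28 and 1.48 FPKM without DSS and at 6.34, 6.88 and 5.38 with it (log2 change 1.95, SE 0.27, adjusted p = 0.0004107). Its antisense RNA Hoxa11os, which overlaps it, went the other way, from 16.0, 15.2 and 13.2 to 4.51, 4.34 and 3.67 FPKM (-1.80, SE 0.16, adjusted p = 2.097e-05). Sense and antisense reads of the pair cannot be told apart in an unstranded library. How reads in the overlap were counted is not given, so either value may hold reads of both strands. Hoxa4 also had a fitted value above 0 and no overlap between the groups (0.738, 1.03 and 0.655 against 1.17, 1.26 and 1.47 FPKM, 0.70, adjusted p = 0.1469), and was not called.

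In Hoxb the genes between Hoxb2 and Hoxb9 rose together. Hoxb6 (chr11:96292476-96301569) was at 0.824, 4.03 and 0.875 FPKM without DSS and at 15.0, 12.6 and 17.1 with it (2.98, SE 0.51, adjusted p = 0.001415). Hoxb5 went from 0.977, 2.39 and 1.01 FPKM to 6.86, 6.86 and 8.04 (2.33, SE 0.33, adjusted p = 0.0004006). Hoxb4 went from 0.659, 0.899 and 0.933 FPKM to 5.10, 4.92 and 4.74 (2.58, SE 0.23, adjusted p = 2.665e-05). In each of these the DSS libraries lay above all untreated ones. Hoxb7 was at 0.619, 1.11 and 0.636 FPKM and then at 4.89, 4.60 and 5.69 (2.69, SE 0.30, adjusted p = 0.0001077). Hoxb3 was at 0.173, 0.326 and 0.101 FPKM and then at 2.14, 1.78 and 2.78 (3.49, SE 0.39, adjusted p = 0.0001063). Hoxb8 was at 0.223, 1.5 and 0.303 FPKM and then at 3.09, 2.79 and 4.67 (2.39, SE 0.58, adjusted p = 0.009724). Untreated library 2 was the highest of its group in Hoxb3, Hoxb5, Hoxb6, Hoxb7 and Hoxb8, and without it the changes of Hoxb6 and Hoxb8 were 4.13 and 3.72, and Hoxb5 and Hoxb6 share their locus with the antisense RNA Hoxb5os. Hoxb2 was at 0.208 to 0.274 FPKM without DSS and 0.369 to 0.471 with it (0.75, adjusted p = 0.1523), and Hoxb9 at 23.4 to 31.6 and 14.6 to 24.9.

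In Hoxd, Hoxd3, Hoxd4, Hoxd8 and Hoxd9 were called higher. Hoxd3 and Hoxd4 passed the filter only with the help of DSS libraries, so their calls are no support for a rise. Hoxd8 (chr2:74704615-74707933) went from 0.536, 0.841 and 0.470 FPKM to 5.09, 4.53 and 4.66 (2.96, SE 0.27, adjusted p = 2.662e-05). Hoxd9 went from 0.448, 0.339 and 0.345 FPKM to 2.66, 2.83 and 2.30 (2.80, SE 0.30, adjusted p = 8.323e-05). The low Hoxd3 went from 0.0351, 0.0315 and 0.103 FPKM to 0.313, 0.239 and 0.330 (2.33, SE 0.56, adjusted p = 0.009115). None of the 3 overlapped between the groups, and without untreated library 3 the change of Hoxd3 was 3.09. Hoxd4 (ENSMUSG00000115956) had 0 counts in each untreated library and 5, 8 and 4 with DSS (adjusted p = 0.01654), at least 1.81-fold higher when 3 counts per library are taken as the limit of a count of 0. That call was lost with the replicate numbers as a block and in limma at a pseudocount of 1. Further back, Hoxd10 (0.290 to 1.78 against 1.84 to 2.68 FPKM, 1.33, adjusted p = 0.08282) and Hoxd11 (0.203 to 0.576 against 0.558 to 0.767 FPKM, 0.97, adjusted p = 0.1089) had fitted values above 0, and Hoxd12 (0.104 to 0.557 against 0 to 0.130 FPKM, -2.12, adjusted p = 0.07976) and Hoxd13 below 0. The sign of the change thus turned between Hoxd11 and Hoxd12, though only Hoxd13 of these 4 was called.

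Hoxc stayed low. Hoxc4 (chr15:103018934-103036852), the highest of the cluster on average, went from 0.0573, 0.154 and 0.119 FPKM to 0.405, 0.724 and 0.539 (2.31, SE 0.51, adjusted p = 0.005868), from 2, 6 and 5 counts to 19, 39 and 20. Hoxc9 had 0 counts in each untreated library and 12, 6 and 4 with DSS (adjusted p = 0.01358), at least 2.37-fold higher. That call was lost without DSS library 1, with the replicate numbers as a block and in limma at a pseudocount of 1. Hoxc9 passed the filter only with the help of DSS libraries, so its call is no support for a rise. Hoxc6, Hoxc8 and Hoxc10 were not called, and none of them exceeded 0.705 FPKM in fl/fl colon.

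**Figure D3:**
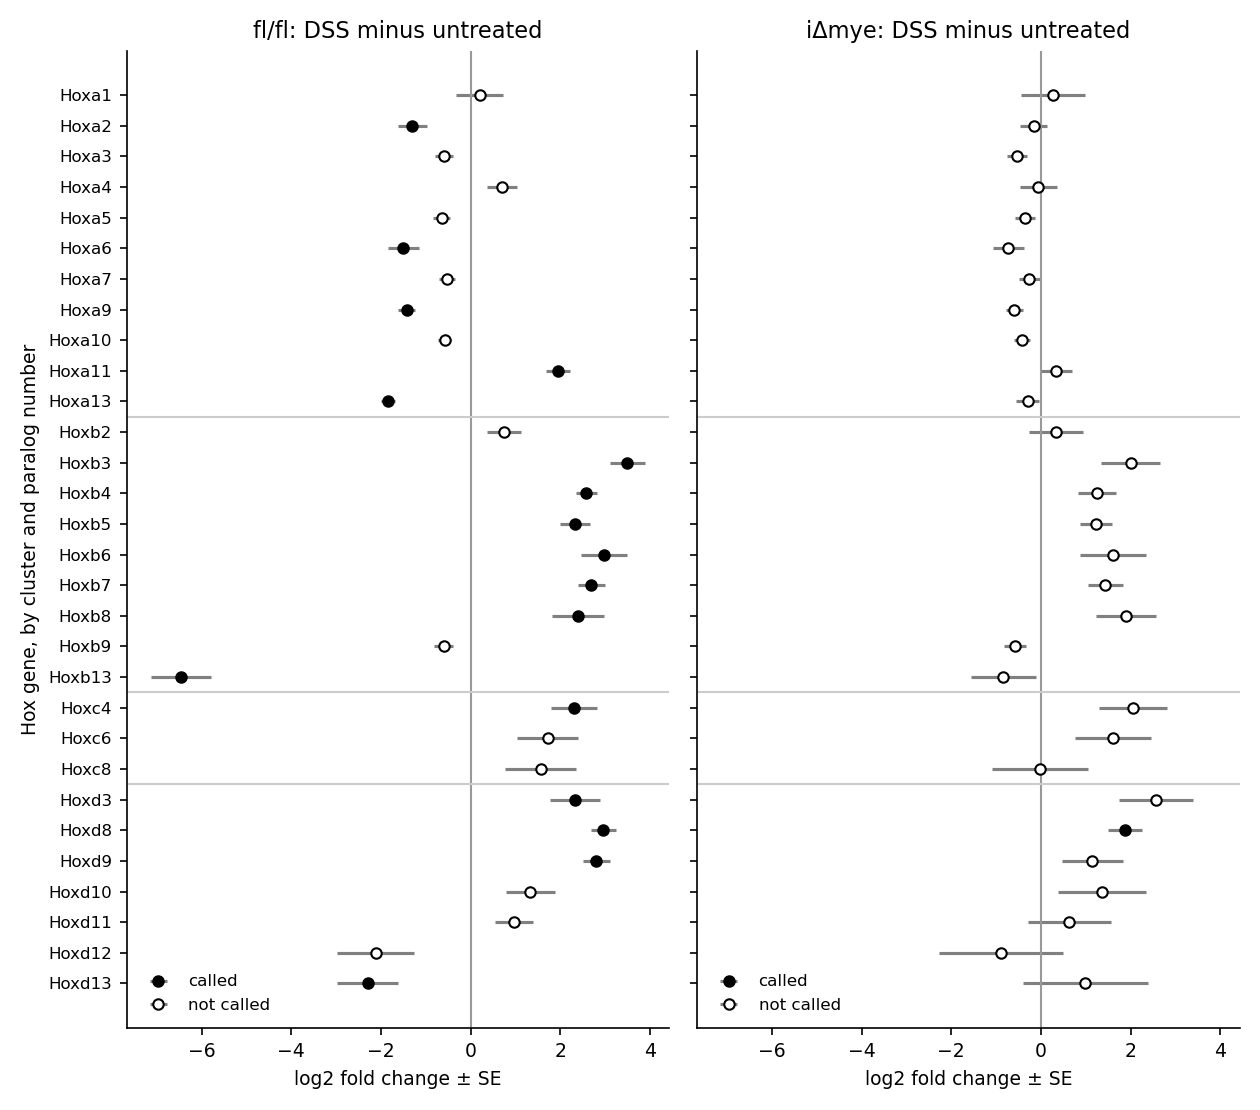
Log2 change with DSS (point) and its standard error (line) for 30 Hox genes in fl/fl mice and in iΔmye mice, by cluster and paralog number, with called genes filled; Hoxc9, Hoxc10 and Hoxd4, which are at 3 counts or fewer in the untreated fl/fl libraries, are left out. Among the genes called in fl/fl mice are Hoxb3 to Hoxb8 above 0 and Hoxb13 at -6.45, the lowest, and in iΔmye mice only Hoxd8 is called.

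As a readout of position, the share of all Hox FPKM that came from paralog groups 9 to 13 was computed for each library. In fl/fl mice it was 80.6, 70.7 and 80.6% without DSS and 45.2, 44.8 and 42.9% with it, a difference of -33.0 percentage points (group SDs 5.72 and 1.27, n = 3). The share of group 13 alone was 59.6, 40.8 and 53.4% without DSS and 11.0, 8.17 and 6.27% with it, a difference of -42.8 points. The libraries of the groups did not overlap in either share. With Hoxb13 left out of the sums the differences were smaller, at -21.4 and -17.4 points. Summed FPKM of groups 1 to 8 was 44.1 to 66.7 without DSS and 63.5 to 78.8 with it, which overlap, while that of all Hox genes went from 228 to 268 down to 115 to 137.9. These shares are given as a description, with no test.

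**Figure D4:**
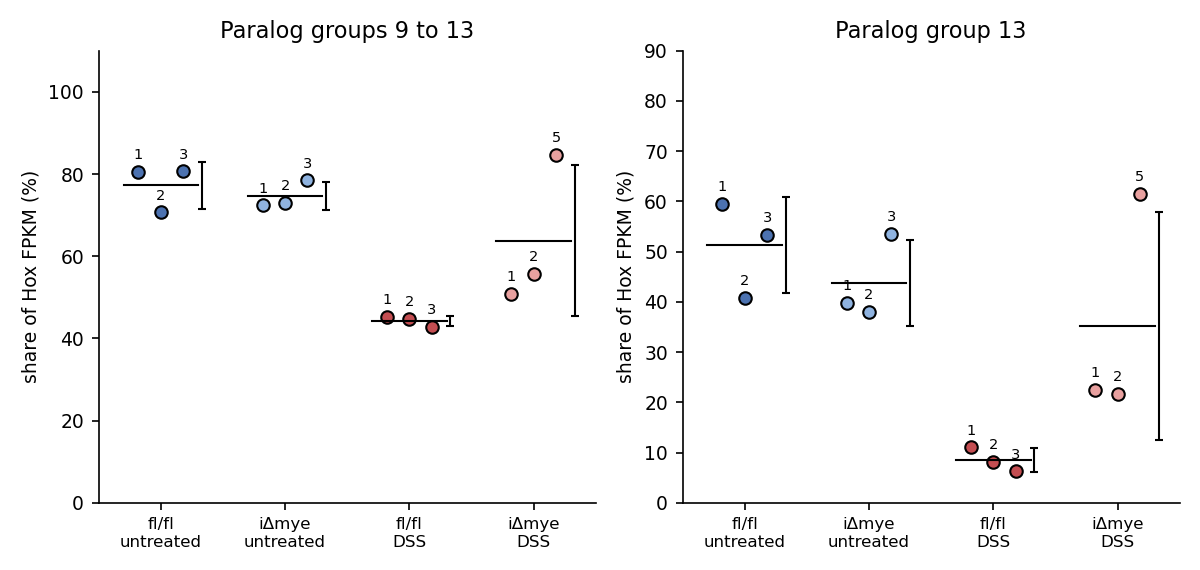
Share of all Hox FPKM held by paralog groups 9 to 13 and by group 13 in each library (points, with the library number), with the mean (line) and SD (bar) of 3 libraries per group. The fl/fl DSS libraries lie at 42.9 to 45.2% and at 6.27 to 11.0%, below all others, and iΔmye DSS library 5 lies at 84.7% and 61.5%.

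Cell types moved along with these genes. In whole tissue, fewer cells of a type and less RNA per cell cannot be told apart. With DSS, 5 of 6 epithelial markers were lower in fl/fl colon and 7 of 7 fibroblast markers higher, as were 4 of 4 endothelial and 6 of 7 neuron and glia markers, and 0 of 6 smooth muscle markers were called. Of the immune markers, 2 of 5 leukocyte genes and 3 of 4 neutrophil genes tested were higher. Over all genes tested, 14.9% were called higher and 7.61% lower. Of 3 squamous genes tested 1 was higher (Krt5), and of the urinary and genital genes the 1 tested, Upk1a, was lower. Krt5 and the neutrophil gene Ngp passed the filter only with the help of DSS libraries, so their calls are no support for a rise. Per 1000 FPKM of the epithelial markers, Hoxb13 was at 20.4, 11.8 and 19.3 without DSS and at 1.06, 0.208 and 0.102 with it, so Hoxb13 was lower relative to the epithelial markers as well. Hoxa13 per 1000 was at 5.73, 5.66 and 6.91 without DSS and at 4.79, 4.51 and 2.77 with it, a smaller move and still without overlap. Per 1000 FPKM of the fibroblast markers, Hoxb3 to Hoxb8 were at 21.3, 68.7 and 21.7 without DSS and at 28.2, 31.8 and 40.7 with it. Relative to those markers the groups overlapped. The part of fibroblasts, endothelium or nerves in the rise of these genes was not tested.

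The same comparison in iΔmye mice asked how DSS changed the code when myeloid cells lose STING. Of the 33 members, 1 was called, higher, where 2.08% of all genes were called and 1.48% were called higher. That gene was Hoxd8, at 0.626, 0.874 and 0.690 FPKM without DSS and 3.68, 2.80 and 1.68 with it (log2 change 1.87, SE 0.38, adjusted p = 0.03345). It was above all untreated libraries in each DSS library, but the call was lost when any library of the comparison other than DSS library 5 was left out (adjusted p = 0.07759 to 0.2065). Hoxb3 to Hoxb8 had fitted values of 1.22 to 2.0 and did not pass the test, for example Hoxb7 (1.04, 0.947 and 1.49 against 3.5, 3.93 and 2.07 FPKM, 1.43, adjusted p = 0.1031) and Hoxb6 (1.78, 1.07 and 4.94 against 11.3, 11.4 and 1.24 FPKM, 1.60, adjusted p = 0.3317). In Hoxb6, libraries 1 and 2 with DSS were high and library 5 was as low as the untreated ones. Hoxa13 was at 31.1, 34.6 and 24.9 FPKM without DSS and at 17.2, 25.6 and 31.1 with it (-0.30, adjusted p = 0.6071). Hoxb13 was at 49.5, 38.6 and 106 FPKM without DSS and at 13, 9.43 and 86.5 with it (-0.84, adjusted p = 0.6332). Both overlapped between the groups, Hoxb13 through library 5 alone.

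Library 5 of the iΔmye DSS group carried another Hox code than libraries 1 and 2. Hoxd13 was at 72.1 FPKM there and at 3.21 and 0.964 in the others, Hoxd10 at 12.7 against 2.15 and 1.42, Hoxd11 at 3.15 against 0.878 and 0.626, and Hoxd12 at 1.8 against 0.140 and 0.0242. In contrast, the sum of Hoxb3 to Hoxb8 was 7.83 FPKM against 29.5 and 26.2. Untreated iΔmye library 3 had a like rise at the end of Hoxd, with 34.9 FPKM of Hoxd13 and 46.1 in the sum of Hoxd10 to Hoxd13 against 3.24 and 2.02 in its group. Both libraries had Xist. Untreated fl/fl library 3, which also had Xist, held 6.90 FPKM of Hoxd13 and a sum of 8.30. Untreated fl/fl library 1, without Xist (0.0246 FPKM), held 17.6 FPKM of Hoxd13 and a sum of 20.4. Whether Xist and these genes go together was not tested. Evx2, the gene beside Hoxd13, was also highest in DSS iΔmye library 5 (2.87 FPKM) and untreated iΔmye library 3 (1.33 FPKM), and at 0.0140 to 0.439 FPKM elsewhere. The posterior homeobox gene Cdx2 was at 13.5 FPKM in DSS iΔmye library 5 and at 41.0 to 119 in the other 11. What part the colon segment, which the labels do not give, had in these values was not tested.

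**Figure D5:**
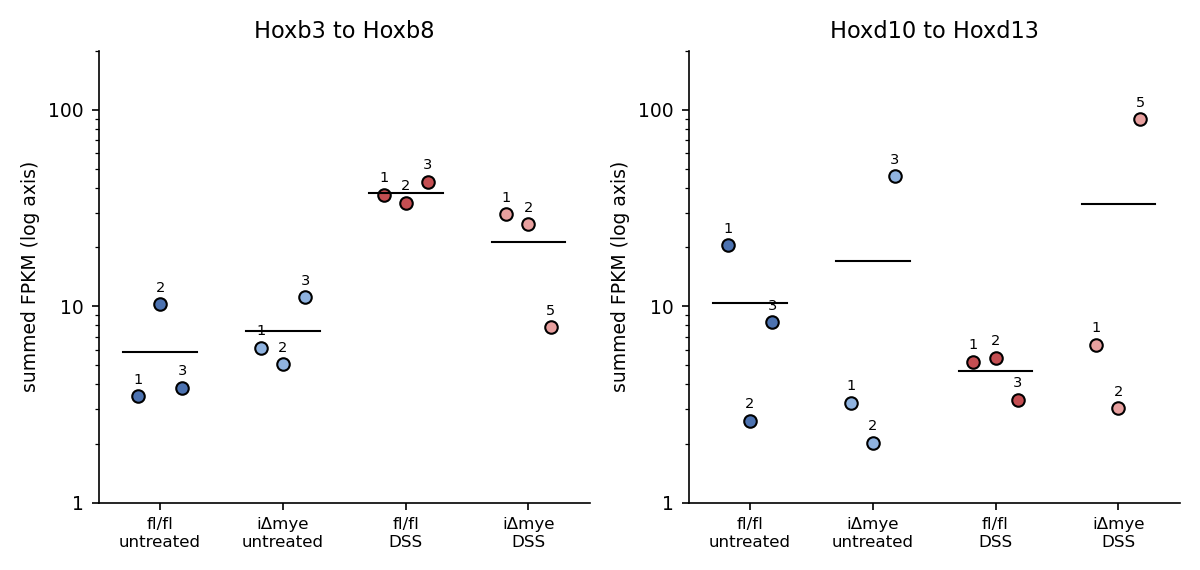
Summed FPKM of Hoxb3 to Hoxb8 and of Hoxd10 to Hoxd13 on log axes in each library (points, with the library number) and the group mean (line) of 3 libraries. Hoxb3 to Hoxb8 separate the DSS libraries from the untreated ones except for iΔmye library 5 at 7.83, and Hoxd10 to Hoxd13 are highest in iΔmye libraries 3 (46.1) and 5 (89.7).

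Without library 5, 9 members were called with DSS in iΔmye mice, 8 higher and 1 lower, where calls over all 24102 genes went from 501 to 1469. Hoxb13 was then called lower (-2.52), and Hoxb3 (2.47), Hoxb4 (1.56), Hoxb5 (1.55), Hoxb6 (2.14), Hoxb7 (1.68), Hoxb8 (2.43), Hoxd3 (3.03) and Hoxd8 (2.15) were called higher. Hoxd3 is among the members that passed the filter only with DSS libraries. Without all 3 libraries with Xist, 7 were called, 6 higher and 1 lower, with 625 calls over all genes. The posterior share in iΔmye mice was 72.4, 73.0 and 78.5% without DSS and 50.8, 55.8 and 84.7% with it. The group 13 share was 39.8, 38 and 53.6% and then 22.5, 21.7 and 61.5%. Libraries 1 and 2 with DSS were below every untreated library in both shares and library 5 was above them all. The difference of the means was -10.8 points in the posterior share and -21.3 without library 5, and -8.58 and -21.7 points in the group 13 share.

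The genotypes were then compared without DSS. No member was called, where 0% of all genes were called by edgeR and 720 of 24102 genes had an unadjusted p under 0.05. No Hox gene was called by DESeq2 or limma either, which called 3 genes each over the whole table (limma 0 at a pseudocount of 1), and none of the 33 members had an unadjusted p under 0.05. Hoxb13 had a log2 difference of -0.40 (SE 0.31) and Hoxa13 of 0.00 (SE 0.16). The posterior shares were 70.7 to 80.6% in fl/fl and 72.4 to 78.5% in iΔmye libraries, which overlap.

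With DSS the genotypes differed in 3 of the 13 members of groups 9 to 13. iΔmye colon held more Hoxb13, Hoxa13 and Hoxa9 than fl/fl colon, and these were the 3 of 33 members called (9.09%), all higher, where 2.81% of all genes were called and 0.822% were called higher. Hoxb13 was at 13, 9.43 and 86.5 FPKM in iΔmye libraries 1, 2 and 5 against 2.26, 0.324 and 0.282 in fl/fl libraries 1, 2 and 3 (log2 difference 5.28, SE 1.13, adjusted p = 0.04552). Hoxa13 was at 17.2, 25.6 and 31.1 FPKM against 10.2, 7.02 and 7.64 (1.60, SE 0.26, adjusted p = 0.02271). Hoxa9 was at 9.14, 11.7 and 11.6 FPKM against 6.48, 4.33 and 4.98 (1.07, SE 0.20, adjusted p = 0.03355). In all 3 genes every iΔmye library lay above every fl/fl library. The calls are close to the threshold. None of the 3 was called without any 1 of the fl/fl DSS libraries or without iΔmye library 2, and without iΔmye library 5 only Hoxa13 was (1.38, adjusted p = 0.03443), while Hoxb13 had 3.56 (adjusted p = 0.06559) and Hoxa9 1.0 (adjusted p = 0.05976). Without fl/fl DSS library 1 Hoxb13 had 6.94.

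No member of groups 1 to 8 was called between the genotypes with DSS. Their median difference was -0.69, and that of groups 9 to 13 was 1.07. Over all 33 members the libraries of the genotypes did not overlap in 15, higher in iΔmye mice in 6 and lower in 9. Over all genes tested 26.6% did not overlap, 10.8% higher and 15.8% lower, and 2.81% were called. In Hoxb3, Hoxb4, Hoxb5, Hoxb6, Hoxb7 and Hoxd8 every iΔmye DSS library lay below every fl/fl DSS library, but the fitted differences of -0.96 to -0.65 did not pass the test (adjusted p from 0.1997 to 0.471). In Hoxa2 (0.82), Hoxa3 (0.47) and Hoxa5 (0.44) every iΔmye DSS library lay above every fl/fl one, also without passing the test. As in the Hoxb genes, every iΔmye library was below every fl/fl one in Hoxa11 (2.99, 4.56 and 1.97 FPKM against 6.34, 6.88 and 5.38, -0.95, adjusted p = 0.1472). Hoxd13 had a difference of 3.89 (SE 1.38, adjusted p = 0.1654), which came down to 0.26 without iΔmye library 5. Epithelial markers summed to 3547 to 4195 FPKM in iΔmye and 1555 to 2759 in fl/fl colon with DSS, and fibroblast markers to 304 to 431 and 1056 to 1312 FPKM. Per 1000 FPKM of epithelial markers Hoxb13 was at 3.63, 2.25 and 24.4 in iΔmye and at 1.06, 0.208 and 0.102 in fl/fl libraries, again with no overlap, and Hoxa13 at 4.81, 6.09 and 8.78 against 4.79, 4.51 and 2.77. The 2 groups thus barely separated in Hoxa13 on that scale.

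Whether DSS moved a gene differently in the 2 genotypes was tested as the interaction. Hoxb13 (5.69, SE 1.19, adjusted p = 0.02465) and Hoxa13 (1.62, SE 0.31, adjusted p = 0.01561) were called, both because the fall with DSS was smaller in iΔmye than in fl/fl mice. These were 2 of 33 members (6.06%), both higher, where 2.55% of all genes were called and 0.934% were called higher. Hoxa9 (0.90, adjusted p = 0.08862), Hoxa11 (-1.54, adjusted p = 0.09083) and Hoxd13 (3.37, adjusted p = 0.3823) were not. The Hoxb13 call was lost without any 1 of untreated fl/fl libraries 1 and 3, untreated iΔmye libraries 1 and 2 and fl/fl DSS library 2, and in limma at either pseudocount, and the Hoxa13 call in limma at a pseudocount of 0.1. Without iΔmye DSS library 5 both calls stood (3.95 and 1.38), without fl/fl DSS library 1 Hoxb13 had 7.28, and without all 3 libraries with Xist neither did (Hoxb13 4.51, adjusted p = 0.05605; Hoxa13 1.25, adjusted p = 0.103). For Hoxb3 to Hoxb8 the interaction ranged from -1.42 to -0.41 and was called in none.

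RNAs transcribed within the clusters were looked at next. Of 9 tested of 11 non-coding RNAs listed, 3 were higher and 3 lower with DSS in fl/fl colon, where 22.5% of all genes were called. Hottip, which is transcribed from the posterior end of Hoxa beyond Hoxa13, went from 10.02, 6.64 and 9.02 FPKM to 0.437, 0.215 and 0.120 (-5.00, SE 0.38, adjusted p = 9.721e-06). In iΔmye colon it was at 9.84, 7.72 and 8.61 FPKM without DSS and at 2.52, 4.18 and 6.28 with it, higher than in fl/fl colon with DSS (4.07, SE 0.53, adjusted p = 0.01368) and called in the interaction (4.05, SE 0.54, adjusted p = 0.003966). Without iΔmye library 5 both were still called (3.68 and 3.65), and the first was lost without iΔmye library 2. It followed Hoxa13 in the direction of these comparisons and was further from 0. The others were Hoxb5os (1.66), Hoxb3os (1.55) and Hoxd3os1 (4.16), all higher, and Hoxa11os (-1.8) and Hoxaas3 (-1.08), lower. Hoxd3os1 was at no more than 0.0256 FPKM in any untreated library and passed the filter only through DSS libraries. Its call is therefore no support for a rise. Among the genes that flank the clusters, 2 of 10 were lower, Evx1 beside Hoxa13 (0.793, 0.962 and 1.05 against 0.133, 0 and 0.0961 FPKM, -3.61, adjusted p = 0.002313) and Ttll6 on the Hoxb13 side (-1.78, adjusted p = 0.002156), and Calcoco1 was higher (1.69, adjusted p = 6.941e-05).

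Hox proteins bind DNA with cofactors of the TALE class. Of 9 such genes, 4 were higher with DSS in fl/fl colon, where 14.9% of all genes were, with a median of 0.71, namely Meis2 (0.739, 0.903 and 1.05 against 3.94, 3.73 and 2.95 FPKM, 2.0, adjusted p = 3.63e-05), Pknox2 (1.71), Meis1 (1.57) and Meis3 (1.19). None was lower, and none was called in the other 4 comparisons. Retinoic acid opens the clusters in the embryo. Of 9 tested of 10 retinoid genes, 5 were higher (14.9% of all genes), the synthetic enzymes Aldh1a1 (1.30), Aldh1a2 (1.76) and Aldh1a3 (3.73), the receptor Rarg (1.36) and the degrading enzyme Cyp26b1 (2.47). Cyp26b1 was lower in iΔmye than in fl/fl colon with DSS (-1.93, SE 0.32, adjusted p = 0.02299), also without iΔmye library 5 (-1.96), but not without fl/fl library 1 or 2 or iΔmye library 2. Of 14 Polycomb and trithorax genes, which keep Hox genes off or on, Cbx6 (1.95) and Cbx7 (1.68) were higher and Cbx2 (-1.01) lower, a share of calls near that of all genes (22.5%).

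The ParaHox genes Cdx1 and Cdx2 act upstream of posterior Hox genes in the gut. Cdx1 was at 146, 127 and 125 FPKM and at 77.9, 41.0 and 78.8 with DSS in fl/fl colon (-0.99, adjusted p = 0.007497), just short of the fold threshold, and Cdx2 at 74.2, 119 and 69.3 and at 62.4, 41.0 and 66.0 (-0.62, adjusted p = 0.0698). Of the 3 ParaHox genes tested of 6, only the scarce Pdx1 was called (-2.33, adjusted p = 0.005227). Car1, a carbonic anhydrase of colonocytes listed among the genes of colon identity, was higher (1.63). Of 3 small intestine genes tested, the bile acid transporter Slc10a2 (5.90) and the factor Gata4 (2.76) were higher and the bile acid binding protein Fabp6 (-2.91) lower. Of 4 genes of salt and acid transport in the distal colon, Atp12a (223, 63.5 and 105 against 3.99, 3.54 and 1.96 FPKM, -5.34, adjusted p = 3.159e-05) and Scnn1a (-2.50, adjusted p = 1.674e-05) were lower. The others, Scnn1b (0.27, adjusted p = 0.5971) and Scnn1g (-0.04, adjusted p = 0.9801), were not called here or in any other comparison. Without untreated fl/fl library 1 the Atp12a change was -4.71. Both Atp12a and Scnn1a were higher in iΔmye than in fl/fl colon with DSS (4.45 and 1.53). Both were called in the interaction (5.29 and 1.76), the same directions as Hoxb13 and Hoxa13. Without iΔmye library 5 these 4 calls stood (3.72, 1.34, 4.55 and 1.54). Between the genotypes the Atp12a call was lost without fl/fl DSS library 1 or 3, and the Scnn1a call without fl/fl DSS library 1 or 2 or iΔmye library 2.

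Windows of 300 bases around the gene start, most of each before the start, were at hand from RefSeq (GRCm38.p6) for 22 of 39 member symbols, in 24 windows. The letters TTTATG, and the longer TTTATTG, resemble the sites that Cdx proteins bind. On either strand, TTTATG occurred in 5 of 24 Hox windows (20.8%) and in 11.9% of all 32851 windows, and TTTATTG in 2 of 24 (8.33%) and in 4.60%. CG pairs numbered 4 to 45 in the Hox windows (median 14.5) against a median of 7 in all. Hoxb8, Hoxd3 and Hoxd4, called higher with DSS in fl/fl mice, hold TTTATG, as does 1 of the windows of Hoxd11 (fitted value 0.97). Of these, Hoxd3 and Hoxd4 passed the filter only with the help of DSS libraries, so their calls are no support for a rise. Hoxa11, Hoxb4, Hoxc4, Hoxd8 and Hoxd9, also called higher, hold neither run. Hoxa7, with a fitted value of -0.53, holds TTTATG at 2 places, and Hoxa2, Hoxa6, Hoxa9, Hoxa13 and Hoxd13, called lower, hold neither. Of the windows at hand, those of Hoxb8 and Hoxa13 are shown as an example with both runs, in capitals, and as the one with the most CG pairs. The Hoxb8 window lies at chr11:96281655-96281954 on the plus strand and has 13 CG pairs, and the Hoxa13 window lies at chr6:52260831-52261130 on the minus strand and has 45.
Hoxb8: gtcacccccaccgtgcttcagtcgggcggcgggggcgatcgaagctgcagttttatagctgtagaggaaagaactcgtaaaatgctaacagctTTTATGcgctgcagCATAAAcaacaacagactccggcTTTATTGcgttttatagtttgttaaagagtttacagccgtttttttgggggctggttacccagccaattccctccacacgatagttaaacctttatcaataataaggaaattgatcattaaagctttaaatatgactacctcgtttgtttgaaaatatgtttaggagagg
Hoxa13: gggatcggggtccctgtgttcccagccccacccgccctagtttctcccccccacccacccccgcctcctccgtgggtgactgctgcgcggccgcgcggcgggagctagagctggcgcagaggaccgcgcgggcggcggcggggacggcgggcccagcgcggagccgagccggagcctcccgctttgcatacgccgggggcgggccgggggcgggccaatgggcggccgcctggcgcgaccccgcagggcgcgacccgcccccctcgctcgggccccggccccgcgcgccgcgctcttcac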

How the data were processed

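Libraries were made with an unstranded polyadenylated RNA kit. Per the labels and the submitters' processing notes, the authors ran CASAVA 1.8, fastp, HISAT2 2.0.5 (GRCm38/mm10), featureCounts 1.5.0-p3 and DESeq2 1.20.0; how featureCounts treated strand is not given in the sources used here. The authors deposited raw counts per gene and FPKM values for each library. Their own group means, log2 fold changes and p-values, also deposited, were not used.

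Counts were tested with edgeR 4.0.16 (TMM factors, quasi-likelihood test, Benjamini-Hochberg adjustment over 24102 genes) on the libraries of each comparison, and on all 12 for the interaction. A gene was called at an adjusted p under 0.05 and a log2 change of at least 1. Genes that reached FPKM 0.1 in 3 or more of the 12 libraries were kept. Levels are FPKM. Alternatives used DESeq2 1.42.0, limma 3.58.1 (pseudocounts 0.1 and 1), RLE factors, no filter, a replicate block, 1 joint fit and leaving out each library. On simulated data (200 of 24102 genes changed) the test recovered 96% in the fl/fl comparison and 86.5% between genotypes with DSS, with 18 and 25 unchanged genes called. Each group was 3 samples chosen at random; p-values measure the spread between these samples, which may be technical.

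The members, lists and tests were chosen with earlier results of these data known. Given in full are members called in any comparison, group 13 members and the highest member of each cluster, the others by range and count. Further genes were named from fixed lists of cofactors, ParaHox genes, cluster RNAs, flanking genes, Polycomb, retinoid, identity, transport and cell type genes. Some items are not reported here.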

Additional observations from a re-analysis of the deposited data

Results flagged for a closer look

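The effect of DSS differed between the genotypes, by the interaction term of edgeR's quasi-likelihood test, in 2 Hox genes. For Hoxb13 the difference of the log2 changes was 5.69 (adjusted p = 0.02465). Hoxb13 was lower with DSS in 3 of 3 fl/fl libraries than in any untreated one, and in 2 of 3 iΔmye libraries. For Hoxa13 the difference was 1.62 (adjusted p = 0.01561), with 3 of 3 fl/fl DSS libraries and 1 of 3 iΔmye DSS libraries below all untreated ones of their genotype. Over the 19 alternatives run for each gene, the Hoxb13 difference ranged from 3.95 to 7.28 and was called in 11, and the Hoxa13 difference ranged from 1.25 to 1.82 and was called in 17.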

How the results depend on the processing

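With DSS in fl/fl mice, 19 members were called and 13 to 24 under every alternative, 18 to 20 with 1 library left out. No member called there changed sign in any alternative, and 13 of the 19 were called in all 14. Those that were not were Hoxd13, Hoxc9, Hoxd4, Hoxa2, Hoxc4 and Hoxd3, the last 3 lost only in limma at a pseudocount of 1. In iΔmye mice the count of 1 became 5 with DESeq2, 0 with limma at either pseudocount and 2 with no filter. It became 10 with the replicate block, 3 in 1 fit of all 12 libraries and 0 to 9 with 1 library left out. The block there in effect leaves out untreated library 3 and DSS library 5, whose numbers the other group lacks. Calls over all genes moved too, from 501 to 1137 with DESeq2, 41 and 74 with limma, 1369 with the replicate block and 981 in 1 fit, and to between 51 and 1469 with 1 library left out, and were also more with no filter. Between the genotypes with DSS the count of 3 became 0 with limma at either pseudocount, 2 with the replicate block, where the Hoxa9 call was lost, and 0 to 3 with 1 library left out. Without DSS the count was 0 throughout. For the interaction the count of 2 became 0 and 1 with limma at pseudocounts 0.1 and 1, and 1 to 4 with 1 library left out. Without the 3 libraries with Xist, a choice made after seeing the data, the counts were 19 in fl/fl mice, 7 in iΔmye mice, 1 between genotypes with DSS, 0 without DSS and 0 for the interaction. The cause of these moves was not tested.

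Without Hoxb13 the fl/fl differences with DSS were -21.4 points in the posterior share and -17.4 in the group 13 share, and that of the group 13 share in iΔmye mice became 1.8. With 1 library left out the posterior difference ran from -36.3 to -31.3 in fl/fl mice, -21.3 to -4.4 in iΔmye mice, -6.0 to -1.0 between genotypes without DSS and 9.0 to 26.0 with it. The group 13 difference ran from -48.0 to -38.6, -21.7 to -1.8, -12.7 to -3.3 and 13.6 to 33.5.

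Libraries with the same replicate number did not deviate together (correlations of -0.0805 to 0.108). These correlations give no sign that the numbers pair the mice, but they cannot exclude it. With the replicate block Hoxd13 between the genotypes with DSS was reversed, at -0.31 (adjusted p = 0.7934, edgeR). The fl/fl and iΔmye DSS groups share only numbers 1 and 2, as do the untreated and DSS iΔmye groups, so the block in effect leaves the others out. With 3 libraries a group, genes at a few counts, as in Hoxc and at Hoxd4, could not be placed beyond the limits given.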
